A study of Drosophila melanogaster with 16 samples.

Results

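The proximal part of chromosome arm 2L of Drosophila melanogaster is described here in larvae that carry 3 copies of the arm and in larvae that carry 2. Its transcripts were taken as those that start from 11 Mb to below 22 Mb on 2L and whose gene name is not a CR number. They are 2079 of 26282 transcripts (1120 of 13742 genes) in the deposited table of autosomal aneuploids and 1702 of 22673 transcripts (991 of 12641 genes) in the table of sex chromosome aneuploids. Both tables list 1679 of them, while 400 are in the first table only and 23 in the second only. A further 303 and 123 transcripts with CR names in the same stretch were left out. Coordinates are those of the tables, and the first start of 1064 of 1125 genes equals the start in the RefSeq annotation of Release 6. RefSeq was matched for 1080 genes (96% of them), of which 1053 code for proteins, 16 are miRNAs, 9 are pseudogenes and 2 are lncRNAs.

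RNA was sequenced from pools of whole larvae of the third instar grown at 25 °C. The trisomy 2L females (labelled XX,AAA) and trisomy 2L males (XY,AAA), with 3 libraries listed for each, came from y; C(2L)dp; F(2R) bw mothers and Canton S fathers. The MSL2-trisomy 2L females and males, also with 3 libraries each, came from the same mothers and from fathers homozygous for MSL2 transgenes on 2R. The metafemales (XXX,AA) and the MSL2-metafemales, with 2 libraries each, came from C(1)DX, ywf/winscy mothers and from fathers of the same 2 kinds, and they carry 2 copies of 2L. The normal diploid females and males of each table, from the Canton S stock, are not among the 16 libraries listed and are known only as columns of means. The aneuploid larvae differ from them also in their parental stocks. The groups with MSL2 were sequenced from paired ends with longer reads, and the diploids from single ends with shorter reads. Trisomy 2L larvae and metafemales without MSL2 were sequenced in both ways and so link the batches, for which the authors adjusted the values. Contrasts of an MSL2 group with diploid still cross these batches. Those of trisomy 2L and of metafemales may cross them too, since the libraries behind their means are not stated.

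When the copy number of a chromosome arm rises, the transcripts of its genes can follow the gene dose (the dosage effect). Regulators encoded on the arm can at the same time act on genes across the genome in the opposite direction, which is called the inverse dosage effect. Where both act on the arm itself they can cancel, and the transcript stays near its diploid level although its gene is present in an extra copy (compensation). The MSL complex is the set of proteins and roX RNAs that binds the single X chromosome of males and acetylates histone H4 there. MSL2 is its male-limited subunit, normally blocked in females by Sex lethal, and the gene of its scaffold subunit, msl-1, lies in proximal 2L.

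Each deposited value is 1 mean for a group, in CPM (read counts scaled to the mapped reads of a library) adjusted for batch. There is thus no spread between libraries to set a difference against, no test was possible, and the depth behind each value is unknown. The ratio used throughout is the authors' mean of an aneuploid group divided by the authors' mean of the diploid of the same sex in the same table, for transcripts with both values. With 3 copies against 2 the dosage ratio is 1.5 and the inverse ratio is 0.667. Transcripts were put into 5 classes with limits midway between these ratios on the log2 scale, at 0.544, 0.816, 1.22 and 1.84. The classes are below inverse, inverse (around 0.667), compensated (around 1), dosage-following (around 1.5) and above dosage. CPM gives a share of a library, so these names describe relative levels, and the absolute amount of RNA was not measured. They also depend on the reference. In trisomy 2L females the median log2 ratio of proximal 2L was 0.22 against diploid and 0.45 above the other autosomes. In whole larvae, fewer cells of a type and less RNA per cell cannot be told apart in any of these values. The age of the larvae within the third instar is not given, so a difference in it cannot be told apart either.

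Of the 2079 transcripts, 1582 had both values in trisomy 2L females, 45 had a value only in diploids (median 0.0609 CPM), 286 only in trisomy (median 0.221 CPM) and 166 in neither. In trisomy 2L males 1880 had both, 22 only the diploid value, 155 only the trisomy value and 22 neither. With MSL2, both values were present for 1370 transcripts in females and for 1820 in males. In metafemales they were present for 1575 of 1702 transcripts and in MSL2-metafemales for 1307. At the limits of the stretch, the 2 transcripts of aub just outside the distal end had female ratios of 0.934 for one and no diploid value for the other, and those just inside were of lectin-33A (0.129) and RpL9 (0.675). At the proximal end, the last transcripts inside belong to CG2528, where the only female ratio was 2.28, and the first outside to CG31693, with 0.697.

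The labels were checked on genes that mark sex and MSL2. roX1, an RNA of the MSL complex, had an authors' mean of 19.7 CPM in diploid females, 566 in diploid males, 15.9 in trisomy 2L females and 119 in trisomy 2L males. msl-2, which lies on distal 2L and is the gene raised by the transgene, had 20.1 CPM in trisomy 2L females and 177 with MSL2, 52.8 and 266 in males, and 8.31 and 95.3 in metafemales. Markers of larval tissues differed between the trisomy 2L and the diploid means. The salivary glue genes Sgs3, Sgs7 and Sgs8 were lower in trisomy 2L of both sexes (Sgs3 at 6745 CPM in diploid and 2319 in trisomy 2L females), and Lsp1alpha, a storage protein of the fat body, was higher (4418 and 16779), while Lsp2, another storage protein, was lower (21542 and 15419). Fbp1, also of the fat body, was higher in females (8743 and 13174). Lcp1, a larval cuticle protein, was lower (6695 and 2908). Of the midgut genes in females, Jon65Aiii (3636 and 1643) and alphaTry (812 and 414) were lower and betaTry was higher (355 and 653). Outside 2L, the muscle genes Act57B and Tm2 and the blood cell gene Hml were higher in both sexes, and elav and nSyb, which mark neurons, were lower. The markers Mhc, NimC1, Lsp1beta and Syt1 lie on 2L themselves and are no separate measure of a tissue here. The part of these differences in the ratios below was not tested.

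In trisomy 2L, the median transcript of proximal 2L lay between the diploid level and the dosage ratio, while single transcripts ranged widely on both sides. The median log2 ratio was 0.22 in females (a ratio of 1.17, with quartiles of 0.774 and 1.94) and 0.10 in males (1.07, quartiles 0.628 and 1.85). Transcripts of the other autosomes, present in 2 copies, had medians of -0.23 in females and -0.25 in males. Proximal 2L was thus 1.36-fold above the other autosomes in females and 1.28-fold in males, where the dosage ratio is 1.5. The distal part of the arm, which is trisomic as well, had medians of 0.20 in females and 0.23 in males, and the difference between both parts of the arm was not tested. Over all transcripts of the table the medians were -0.11 and -0.14.

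In the MSL2 groups the medians of proximal 2L were 0.08 on the log2 scale in females (ratio 1.05) and 0.07 in males (ratio 1.05), beside -0.29 and -0.23 on the other autosomes. Their side of the diploid level depended on the scaling, since both were below 0 with equal column totals (-0.024 and -0.034), and males were at -0.051 in genes with 1 transcript. The trisomy 2L and MSL2-trisomy 2L contrasts of a sex share their diploid column. In metafemales and MSL2-metafemales, which are diploid for 2L, the medians were -0.26 and -0.40, within 0.01 of those of the other autosomes (-0.27 and -0.39). With an extra X and 2 copies of the arm, proximal 2L therefore stood at a ratio of 0.833 to diploid, and at 0.759 with MSL2. These 2 values come from a table normalised separately from that of the trisomies. Tissue markers differed there as well, with Sgs7 at 13550 CPM in diploid females and 793 in metafemales, Sgs8 at 4896 and 147, Lsp1alpha at 1090 and 6586 and Act57B at 1876 and 10684. Of the other fat body markers, Lsp1beta was higher (7460 and 29170), while Lsp2 (21048 and 7189) and Fbp1 (16155 and 2727) were lower. The midgut genes Jon65Aiii, alphaTry and betaTry were higher. Their part in the metafemale medians was not tested.

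**Figure D1:**
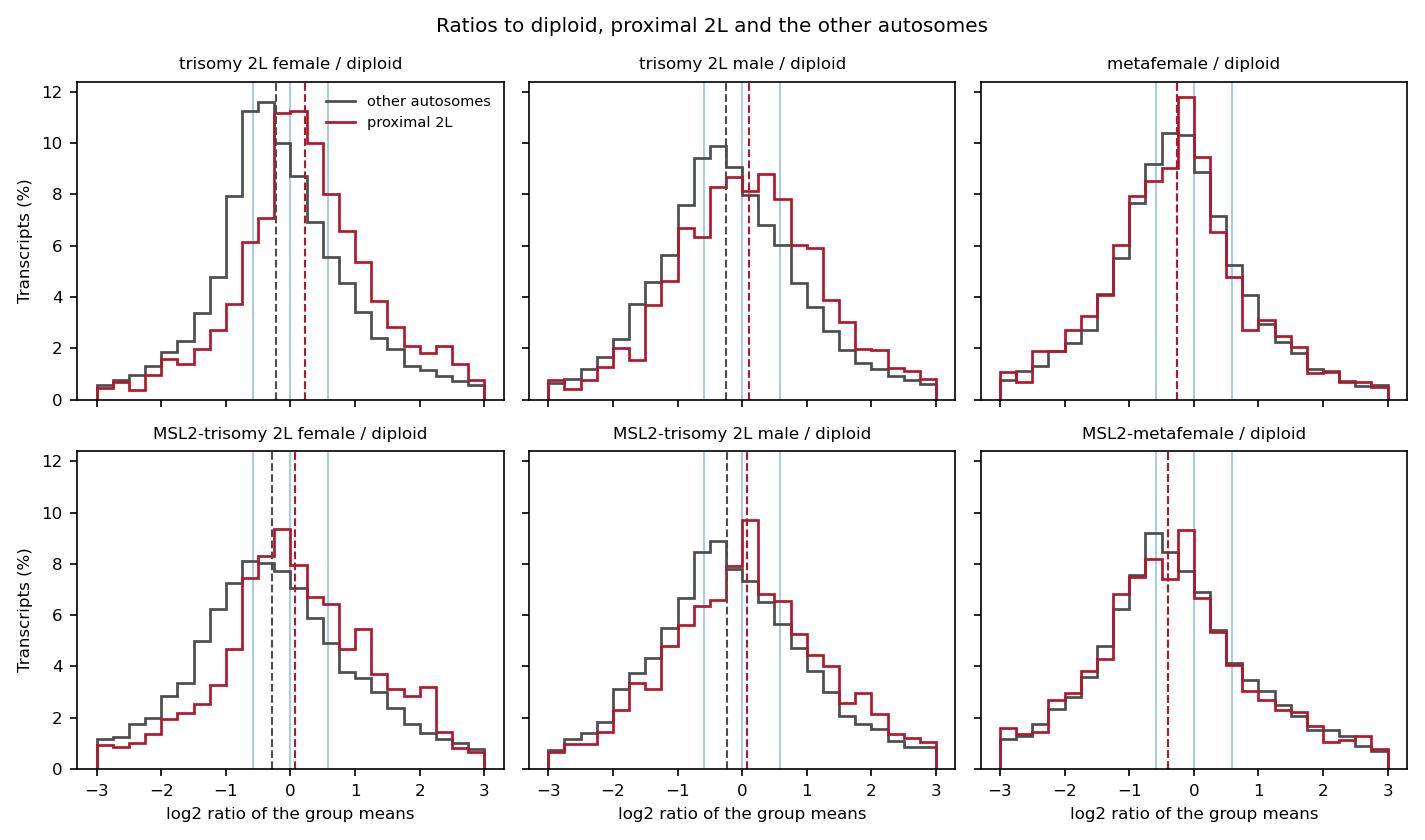
Distribution of log2 ratios of group means (x axis) as the percentage of transcripts in bins of 0.25 (y axis), for proximal 2L (red) and the other autosomes (grey) in 6 contrasts with diploid. Dashed lines are medians and pale blue lines mark the ratios 0.667, 1 and 1.5; between 4.36% and 10.3% of transcripts lie outside the plotted range. In the 4 trisomy panels the red line lies to the right of the grey one, with medians of 0.22 and -0.23 in females, while in both metafemale panels the lines lie over each other.

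Compensated transcripts made up between 18.1% and 25.5% of proximal 2L in the 6 contrasts, and the transcripts spread over all 5 classes. Of the trisomy 2L female ratios, 404 of 1582 transcripts (25.5%) were compensated, where 22.9% of all transcripts of the table were. Dosage-following were 313 (19.8%, against 15.1% of all), and 432 (27.3%, against 19.9%) were above the dosage class. The inverse class held 224 (14.2%, against 22.4%) and the class below it 209 (13.2%, against 19.7%). That last share was 3.90% among transcripts of at least 10 CPM and 1.66% among genes of at least 10 CPM, where 39.6% of genes were compensated. Genes of the other autosomes moved the same way. At 10 CPM or more, 9.51% of them were below inverse (16.2% at all levels) and 29.7% compensated (24.5%). Both lower classes were therefore smaller in proximal 2L than over the table, and both upper classes larger. The same held on distal 2L, which is trisomic as well, so it is no trait of the proximal part. There, 13.1% were below inverse, 13.0% inverse, 26.6% compensated, 17.1% dosage-following and 30.2% above dosage.

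In trisomy 2L males, 376 of 1880 transcripts (20.0%) were compensated, close to the 20.2% over the table. Dosage-following were 343 (18.2%, against 15.1%) and above dosage 483 (25.7%, against 20.2%). The inverse class held 314 (16.7%, against 20.2%) and the class below it 364 (19.4%, against 24.3%). As in females, both upper classes were larger than over the table and both lower ones smaller. Distal 2L again had the same pattern, with 15.7% below inverse, 14.1% inverse, 23.1% compensated, 17.9% dosage-following and 29.3% above dosage.

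In MSL2-trisomy 2L females, 270 of 1370 transcripts (19.7%, against 17.4% of all) were compensated, 198 (14.5%, against 12.9%) were dosage-following and 392 (28.6%, against 23.7%) were above dosage. The inverse class held 242 (17.7%, against 17.7%) and the class below it 268 (19.6%, against 28.3%). For MSL2-trisomy 2L males, 360 of 1820 (19.8%, against 18.4%) were compensated, 272 (14.9%, against 14.5%) were dosage-following and 499 (27.4%, against 23%) were above dosage. There, 268 (14.7%, against 18%) were inverse and 421 (23.1%, against 26.1%) were below.

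In metafemales the shares of proximal 2L stayed within 4 percentage points of the table. Compensated were 383 of 1575 transcripts (24.3%, against 23.1%), dosage-following 187 (11.9%, against 14.4%) and above dosage 237 (15.0%, against 16.7%). Inverse were 310 (19.7%, against 20.5%) and below inverse 458 (29.1%, against 25.3%). In MSL2-metafemales, 237 of 1307 (18.1%, against 17.7%) were compensated, 129 (9.87%, against 11.3%) dosage-following, 247 (18.9%, against 20.7%) above dosage, 250 (19.1%, against 18.9%) inverse and 444 (34.0%, against 31.3%) below inverse. The number of copies of 2L is the same as in diploids in both groups, so the class names only give the size of a ratio there.

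Outside the compensated class, 63.2% of the transcripts were higher than diploid in trisomy 2L females, or 73.0% when ratios were centred on the median of the other autosomes. The share was 53.6% in MSL2-trisomy 2L females (65.0% centred), 54.9% in trisomy 2L males (65.0%), and with MSL2 the males had 52.8% (61.4%). With equal column totals these shares were 61.1%, 49.9%, 52.5% and 49.1%, so that in both MSL2 groups slightly more transcripts were lower than higher. In metafemales the share was 35.6% (48.2% centred) and in MSL2-metafemales 35.1% (49.8%). Set against the other autosomes, the transcripts of proximal 2L were thus more often higher in each trisomy 2L group and about as often higher as lower in both metafemale groups.

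**Figure D2:**
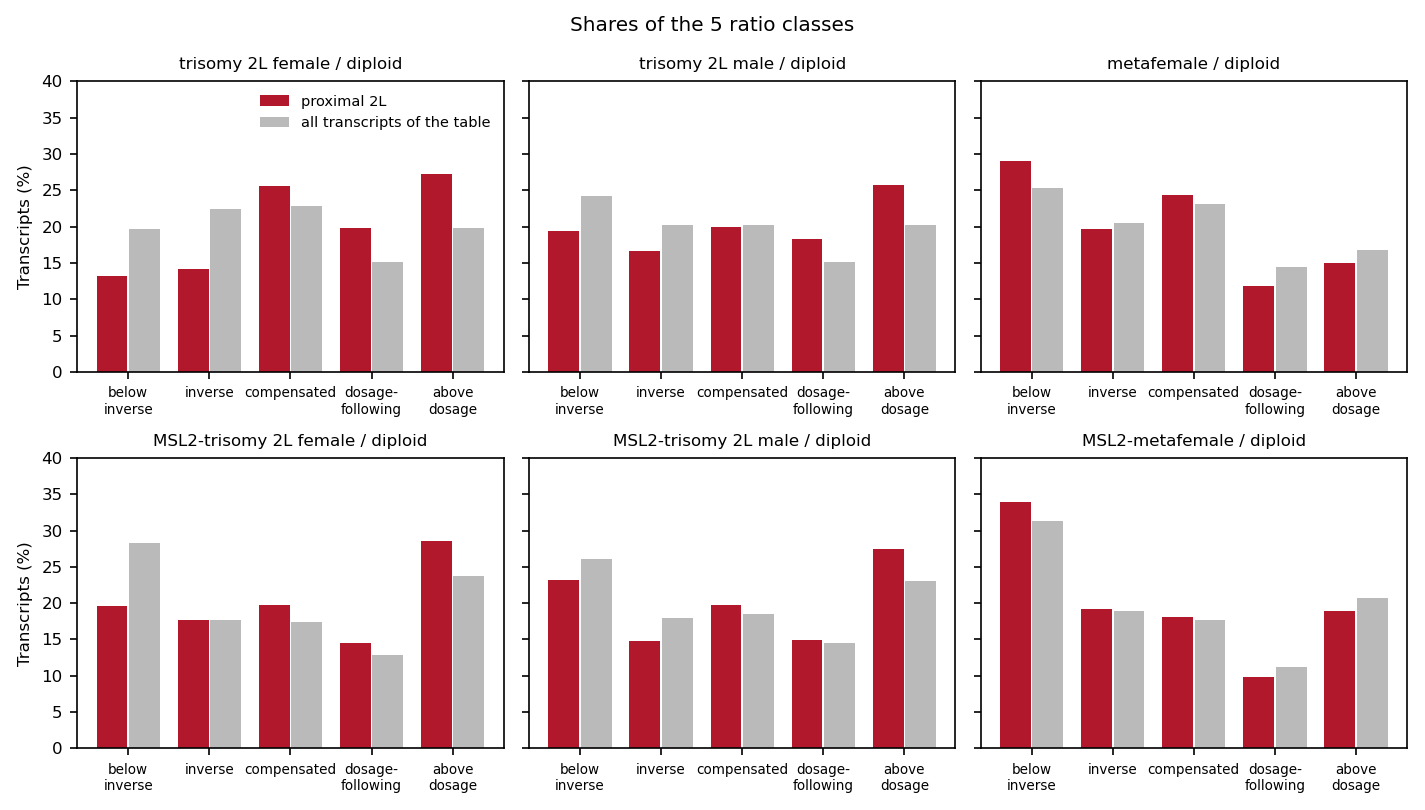
Percentage of transcripts (y axis, from 0) in the 5 ratio classes (x axis) for proximal 2L (red) and for all transcripts of the same table (grey), in 6 contrasts with diploid. In trisomy 2L females the red bars are lower than the grey ones in both lower classes (13.2% against 19.7% and 14.2% against 22.4%) and higher in the upper classes.

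The spread of these ratios can be set against a pair of means for the same label. The 2 tables each give a diploid female mean, normalised separately. The paper sequenced diploids in both its trisomy 2L and its metafemale group, so the 2 means likely come from different larvae. Lsp1beta was lower in the second mean (28545 and 7460 CPM) and Fbp1 higher (8743 and 16155 CPM). Over 1434 transcripts of proximal 2L with both values, the median log2 ratio (second table over first) was 0.03. Its quartiles were -0.64 and 0.89. The interquartile range was 1.53 on the log2 scale, beside 1.32 for trisomy 2L against diploid females. Only 21.5% of the transcripts had a ratio of the 2 diploid means in the compensated range, fewer than the 25.5% between trisomy 2L and diploid females. The diploid male means differed in level as well, with a median of -0.25. Single transcripts could therefore move between classes with the choice of the diploid mean.

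The ratios were more spread among transcripts with low values. The median female log2 ratio of proximal 2L was -0.10 below 0.1 CPM (188 transcripts, by the geometric mean of both values), 0.00 from 0.1 to 1 CPM (338), 0.39 from 1 to 10 CPM (543), 0.25 from 10 to 100 CPM (414) and 0.34 at 100 CPM and over (99). In each of these 5 ranges the other autosomes were lower, with medians of -0.34, -0.22, -0.15, -0.26 and -0.23. The interquartile range narrowed from 1.93 below 0.1 CPM to 0.90 from 10 to 100 CPM. In that range 35.3% of transcripts were compensated, 25.4% dosage-following and 13.5% inverse, where 24.6%, 14.7% and 33.6% of the other autosomes in the same range were. Trisomy 2L males had medians of -0.09, 0.15, 0.26, 0.03 and 0.29 in the same 5 ranges, above the other autosomes in each (-0.30, -0.19, -0.17, -0.35 and -0.16). In males the fourth range, from 10 to 100 CPM, thus stood lower than its neighbours, as it did on the other autosomes. There, 17.7% of proximal 2L transcripts were below the inverse class, beside 3.86% in females. Genes of the other autosomes with at least 10 CPM were also more often below it in males (19.6%) than in females (9.51%). For genes of proximal 2L these shares were 12.7% and 1.66%.

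When transcripts of a gene were summed, 961 genes of proximal 2L had both female values, with a median log2 ratio of 0.23, and 1076 had both male values, with 0.10. Of the female genes, 29.1% were compensated, 26.1% above dosage, 15.7% inverse and 8.01% below, and the other 202 were dosage-following. Genes of the other autosomes had 24.5%, 14.2%, 29.8% and 16.2%, with 15.3% dosage-following. Transcripts of the same gene often fell apart. Of 373 genes with at least 2 measured transcripts in females, 89 (23.9%) had all of them in 1 class, and 199 (53.4%) had transcripts on both sides of a ratio of 1. With transcripts of at least 10 CPM only, 23 of 75 genes (30.7%) had them on both sides. These counts were not made for genes elsewhere, so they are no trait of proximal 2L. The number of transcripts listed for a gene moved with the median in both sexes of trisomy 2L. In males, genes with 1 transcript stood at -0.03, with 2 or 3 at 0.06 and with 4 or more at 0.34. The other autosomes had -0.37, -0.22 and -0.11 in the same order. In females the medians were 0.11, 0.21 and 0.40, beside -0.28, -0.22 and -0.13 on the other autosomes. Reads of genes with several transcripts are divided among them by estimation, so these values are less certain.

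Females and males of trisomy 2L were compared with separate diploid columns. Over 1533 transcripts with both ratios, 689 (44.9%) fell into the same class in both sexes, and Pearson's r of the log2 ratios was 0.41 (Spearman's rho 0.49). With at least 10 CPM in both sexes, 282 of 478 transcripts (59.0%) had the same class, with r of 0.75 and rho of 0.78. Over all transcripts of the table the shares in the same class were 44.6% and 58.4%, so the agreement between sexes in proximal 2L was near that of the whole table. These correlations run across transcripts, many of the same genes, that passed through 1 joint batch adjustment, and are descriptions only. At this level 91 transcripts were compensated in both sexes (of 159 in females and 139 in males), 58 dosage-following (of 121 and 109), 33 inverse (of 67 and 67) and 94 above dosage (of 114 and 136). Counts by class were not made over all transcripts, so these are no trait of proximal 2L.

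Over 411 genes with at least 10 CPM in all 4 means, 267 had the same class in both sexes, a share of 65.0% beside 61.8% over all genes. Of these, 105 were compensated, 56 dosage-following, 75 above dosage, 29 inverse and 2 below, counts that were not made over all genes. Another 8 genes were in an upper class in one sex and in a lower class in the other, a count that was not made over all genes. These were named after their values were seen. firl, yellow-c and brat were higher in females and lower in males, with ratios of 1.48 and 0.794 in firl, 2.39 and 0.432 in yellow-c and 1.94 and 0.676 in brat. CG12404, CG33307, ZnT35C, PRL-1 and hook were the other way round. For brat, a translational repressor of neural progenitors, the female ratio was 0.820 when only its transcripts with both values were summed, so its direction in females rests on transcripts without a diploid value.

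Along the stretch, windows of 1 Mb differed in their medians. Of the trisomy 2L female medians, 10 of 11 were above 0, from 0.11 to 0.35 on the log2 scale, and only the most proximal, from 21 to 22 Mb, was below (-0.10). On the other autosomes 64 of 70 windows with at least as many transcripts (74) were below 0, and on distal 2L none of 11 was. In trisomy 2L males 8 of 11 windows were above 0, but with transcripts of at least 10 CPM only 6 were, and those from 12 to 13 Mb (-0.06) and 15 to 16 Mb (-0.08) were below as well. Over all transcripts the windows from 14 to 15 Mb (-0.26), 17 to 18 Mb (-0.15) and 21 to 22 Mb (-0.23) were below, and the highest was 19 to 20 Mb (0.31). In males 65 of 68 windows of the other autosomes were below 0. The same 3 windows were below 0 in MSL2-trisomy 2L males (-0.36, -0.21 and -0.54). The lowest window of MSL2-trisomy 2L females was again 21 to 22 Mb (-0.29). In metafemales and MSL2-metafemales all 11 windows were below 0, and 12 to 13 Mb was the lowest in both (-0.47 and -0.73).

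The window from 21 to 22 Mb holds the histone gene repeats, nearly identical copies among which reads cannot be assigned with certainty. There, 29 histone transcripts had both female values, with a median log2 ratio of -0.83 and no mean above 0.731 CPM. Without them the window stood at -0.05 in trisomy 2L females and -0.13 in males, at -0.19 in MSL2-trisomy 2L females and -0.26 in MSL2-trisomy 2L males. With transcripts of at least 10 CPM only, it stood at 0.04 in trisomy 2L females (40 transcripts), still the lowest of the 11 windows, and at -0.13 in males (46).

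**Figure D3:**
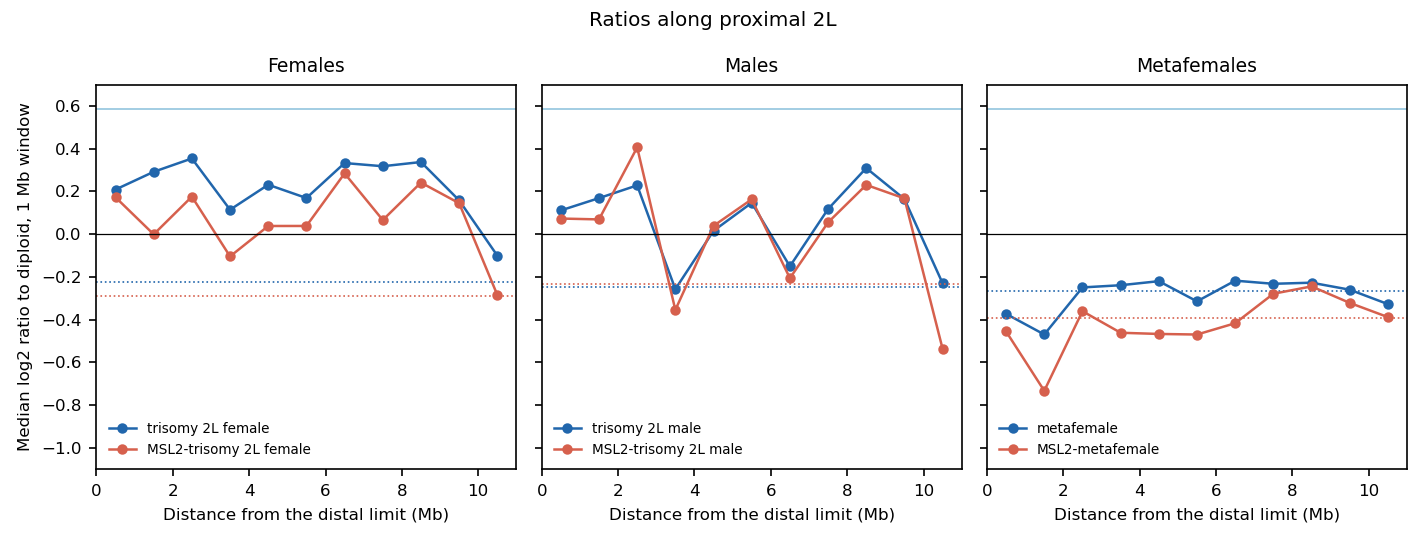
Median log2 ratio to diploid (y axis) in windows of 1 Mb by distance from the distal limit of proximal 2L (x axis, Mb), for groups without (blue) and with MSL2 (red). Dotted lines are the medians of the other autosomes and the pale blue line is the dosage ratio of 1.5. In trisomy 2L females 10 of 11 points are above 0 and the most proximal is at -0.10; males have dips at 3 windows, and all metafemale points are below 0.

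Of the 3 low male windows, those from 14 to 15 Mb and from 17 to 18 Mb held the largest shares of transcripts that are higher in males. Transcripts were called male-high where the diploid male mean of the other table was at least 4-fold the female mean of that table. Those with a diploid male but no diploid female value there were also counted as male-high. The columns compared in trisomy 2L were thus not used. Shares were taken over transcripts in both tables with a male ratio. Male-high were 23 of 90 (25.6%) from 14 to 15 Mb and 25 of 75 (33.3%) from 17 to 18 Mb. The other windows had 13.0% to 24.5% (16.2% from 21 to 22 Mb). In trisomy 2L males the 298 male-high transcripts of proximal 2L with both values had a median log2 ratio of -0.62 (a ratio of 0.65), the 1176 transcripts similar in both sexes 0.29 (1.22) and the 67 female-high transcripts 0.70 (1.62). Male-high transcripts of the other autosomes were lower still, with -0.93 over 1937 transcripts. In females the 219 male-high transcripts of proximal 2L stood at 0.10. Over transcripts present in both tables, the male medians were -0.07 from 14 to 15 Mb, -0.06 from 17 to 18 Mb and -0.09 from 21 to 22 Mb, nearer to 0 than over all transcripts. Without the male-high ones among these they were 0.45, 0.28 and -0.03.

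The testis is the main source of male-limited transcripts in larvae. Its markers aly, can and bam were lower in the trisomy 2L male mean than in the diploid male mean (8.94 against 13.2 CPM, 12.8 against 25.5 CPM and 2.47 against 3.34 CPM). In females they were between 0.04 and 0.59 CPM in the diploid, trisomy 2L and MSL2 means that gave a value. The part of testis size in the male-high ratios was not tested. Over all transcripts of proximal 2L, the male median log2 ratio was 0.21 without the male-high ones and 0.10 with them. Transcripts missing from the other table could not be classed and were kept in both medians.

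**Figure D4:**
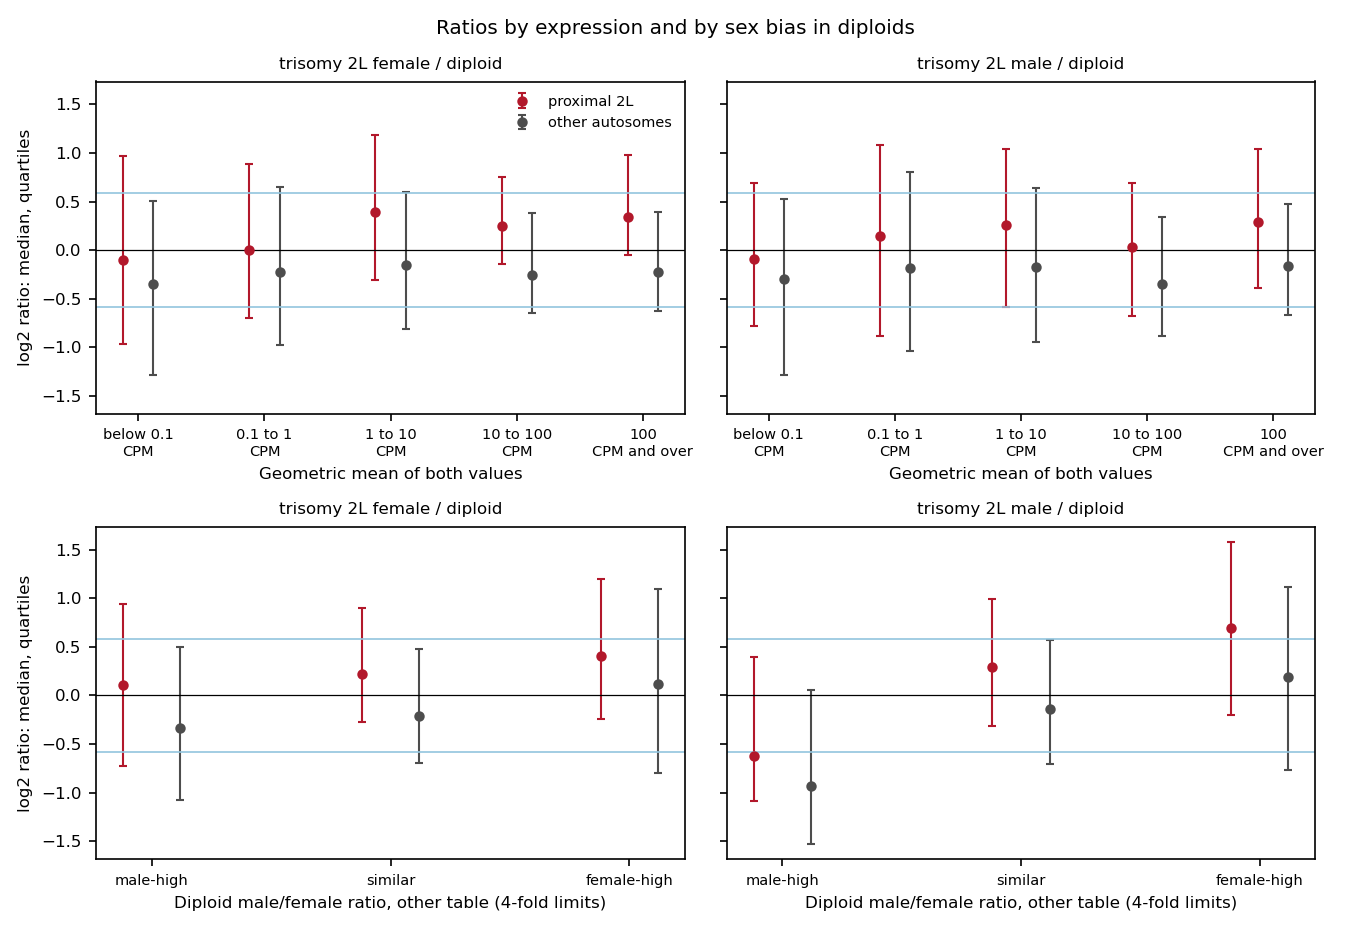
Median log2 ratio to diploid (points) with quartiles (bars) for proximal 2L (red) and the other autosomes (grey) in trisomy 2L females and males, by the geometric mean of both values in CPM (top) and by the diploid male/female ratio of the other table (bottom). Pale blue lines mark the ratios 0.667 and 1.5. Red points are above grey ones in every class, and in males the male-high transcripts of proximal 2L have a median of -0.62.

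Dividing the MSL2 mean by that of the same aneuploidy without MSL2 leaves the diploid column out. In females the median of this direct ratio over 1520 transcripts of proximal 2L was -0.14 on the log2 scale (a ratio of 0.911), beside -0.10 on the other autosomes and -0.12 on distal 2L, and all 11 windows were below 0. In males it was -0.02 over 1930 transcripts (0.986), beside 0.02 on the other autosomes, with 7 of 11 windows below 0. In metafemales it was -0.10 over 1347 transcripts (0.931), beside -0.10 on the other autosomes. Proximal 2L thus differed from the other autosomes by at most 0.04 in all 3 direct ratios, where their interquartile ranges in proximal 2L ran from 0.74 to 1.02. Tissue markers moved between these means too. From trisomy 2L to MSL2-trisomy 2L females Sgs3 went from 2319 to 179 CPM, Sgs7 from 2099 to 150 and Lsp2 from 15419 to 2178, while in males Sgs3 went from 2425 to 3493. Of the other fat body markers in females, Fbp1 went from 13174 to 5208 CPM, while Lsp1alpha rose from 16779 to 20206 and Lsp1beta rose too. Their part in the direct ratios was not tested. MSL2 groups lacked values for 348 transcripts in females that had one without MSL2 (median 0.0886 CPM), and only 32 had one with MSL2 alone.

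Genes of the stretch were then read by function, with all transcripts of a gene summed. Each value is the authors' mean in CPM, and folds are ratios of these means. msl-1, the scaffold of the MSL complex, had 20.8 CPM in diploid females and 33.6 in trisomy 2L females, a ratio of 1.61, and 23.0 and 42.8 in males, a ratio of 1.86. With MSL2 the ratios to diploid were 1.44 and 1.94. Its levels thus followed or passed the dosage ratio in both sexes, while in metafemales, with 2 copies, it was at 0.843.

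Regulators of chromatin and transcription were mostly above diploid in females. Of the 8 listed, msl-1, esc, crol, Su(H), cad and tup were in the dosage-following class in trisomy 2L females, brat was above it and dac was in the inverse class. Over all genes of proximal 2L, 202 of 961 were dosage-following. With MSL2, 2 of the 8 were in that class in females, where 16.4% of all genes of proximal 2L were, and the median log2 ratio of the 8 was 0.22, beside 0.14 over all these genes. Without MSL2 the median was 0.61 in females and 0.51 in males, beside 0.23 and 0.10 over all genes of proximal 2L. esc, a subunit of the Polycomb complex that methylates histone H3, had ratios of 1.37 in females and 1.36 in males. crol, a zinc finger protein, was at 1.46 and 2.48. Su(H), the DNA-binding effector of Notch, was at 1.54 and 0.949. cad, a homeodomain protein of the hindgut, was at 1.58 and 2.33. tup, a LIM-homeodomain protein, had 8.64 and 13.0 CPM in diploid and trisomy 2L females, and its male ratio was 1.49. dac, a nuclear factor of the eye and legs, was at 0.773 and 0.891, and its female ratio was 0.481 over transcripts with both values. The 2 Snail family zinc finger genes with values were at or below the diploid level in females, esg at 0.720 and wor at 0.943. In males esg was at 0.726 and wor at 1.11, and sna is not among the genes of either table here.

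The Nimrod genes, which encode blood cell receptors for phagocytosis and their secreted relatives, mostly stood above diploid. Of the 9 with both values in trisomy 2L females, 7 were in the dosage-following class or above it, where 47.1% of all genes of proximal 2L were. The median log2 ratio was 0.87, beside 0.23 over all these genes. NimB2 had 69.2 CPM in diploid and 227 in trisomy 2L females (3.28), and 47.8 and 237 in males (4.97). NimB4 was at 3.57 and 5.36, NimB1 at 4.04 and 4.81, NimB3 at 1.27 and 1.52, NimB5 at 1.49 and 1.51 and NimC1, a phagocytosis receptor of larval blood cells, at 1.83 and 1.74. NimC3, below 10 CPM, was at 3.51 and 1.90, NimA at 0.941 and 0.670, and NimC4 had no diploid value. NimC2 was in the compensated class without MSL2 (1.16 and 0.870), at 0.126 in MSL2-trisomy 2L females and at 1.98 in MSL2-trisomy 2L males. In metafemales, with 2 copies of the arm, 5 of 9 Nimrod genes were below diploid and their median log2 ratio was -0.41, beside -0.28 over all genes of proximal 2L. There NimB2 was at 2.35, NimC1 at 2.08, NimB4 at 1.64 and NimB5 at 1.05, while NimB1 was at 0.753, NimB3 at 0.682, NimA at 0.315, NimC3 at 0.208 and NimC2 at 0.0117. The 10 genes lie close to each other on 2L, from 13957539 to 14048863 in Release 6. Hml, a blood cell marker outside 2L, was higher as well, with 140 CPM in diploid and 338 in trisomy 2L females, and 107 and 303 in males. The part of blood cell number was not tested.

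Other immune genes lie further along. All 3 listed genes of the Toll pathway were above 1.22 in trisomy 2L of both sexes, as were 47.1% of all genes of proximal 2L in females and 42.6% in males. cact, the inhibitor that holds Rel factors in the cytoplasm, had ratios of 2.04 in females and 1.89 in males, Dif, a Rel factor, 1.55 and 1.49, and its neighbour dl, the Dorsal Rel factor, 2.49 and 1.71. The male value of dl was 0.968 when only transcripts with both values were summed, and with MSL2 it was 0.894. Of the thioester proteins, relatives of complement, Tep4 was at 2.16 and 2.30 and Tep1 at 4.39 and 2.44, while Tep5, below 1 CPM, was at 0.731 and 1.02. The 3 lectin genes were below 10 CPM in diploid and trisomy 2L larvae and went both ways. lectin-33A had ratios of 0.129 in females and 0.0837 in males, lectin-37Da 2.00 and 3.03, and lectin-37Db 4.83 and 6.38. In metafemales the 3 Toll genes were between 0.766 and 0.889, where 64.4% of all genes of proximal 2L were below diploid.

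Enzymes lay at both ends of the range. Adh, the alcohol dehydrogenase of fat body and gut, had 462 CPM in diploid and 2134 in trisomy 2L females (4.62), and 203 and 2242 in males, a log2 ratio of 3.46. With MSL2 it had 4591 CPM in females and 1928 in males, and in metafemales its ratio was 1.39. Adhr, which shares a transcription unit with Adh so that their reads may not be told apart, was at 2.50 and 2.75. Ddc, the dopa decarboxylase of cuticle and dopamine synthesis, was lower than diploid, with 101 and 80.8 CPM in females (0.797) and 123 and 51.3 in males (0.417). Its neighbour amd, a related gene, was higher at 2.60 and 3.12, from 2.50 CPM in diploid females. Catsup, a brake on catecholamine synthesis, was compensated in both sexes at 1.09 and 1.07. Cyp28a5, a cytochrome P450, was among the 5 lowest female ratios, with 804 CPM in diploid and 305 in trisomy 2L females (0.379), beside 0.768 in males. The diploid female mean of the other table, normalised separately, was only 11.1 CPM, and the metafemale ratio to it was 10.6, so the female ratio rests on a diploid level that the second table does not share. Cyp310a1 was compensated at 0.861 and 1.14, and over the 4 P450 genes the median log2 ratio was -0.04 in females and 0.65 in males. The markers of fat body, salivary gland and cuticle that differed between these means are given above, and their part was not tested.

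Proteins of translation and of mitochondria ranged from the inverse class to above dosage. The 5 cytosolic ribosomal protein genes had female ratios from 0.790 to 1.67. RpL24 had 915 CPM in diploid and 1530 in trisomy 2L females (1.67) and 660 and 1502 in males (2.28). RpS26 was dosage-following in both sexes at 1.27 and 1.52, RpL7-like compensated at 0.898 and 0.907, and RpL30 inverse at 0.790 and 0.781. EF2, the translation elongation factor, was dosage-following with 5644 CPM in diploid and 7211 in trisomy 2L females (1.28), and 1.42 in males. In metafemales the 5 ribosomal protein genes were all below diploid, between 0.612 and 0.851, as were 64.4% of all genes of proximal 2L, while EF2 was at 1.79. The 7 genes of the mitochondrial ribosome and respiratory chain ran from 0.967 to 2.04 in females. mRpL4 was at 2.04 and 2.85 and ND-B17, a subunit of complex I, at 2.00 and 2.59. ND-B22, also of complex I, was at 0.997 in females and 1.53 in males, and mRpS18B was compensated at 0.967 and 1.05. Genes grouped here by symbol as parts of shared complexes thus differed in their ratios of means. Without a spread between libraries, these differences were not tested.

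**Figure D5:**
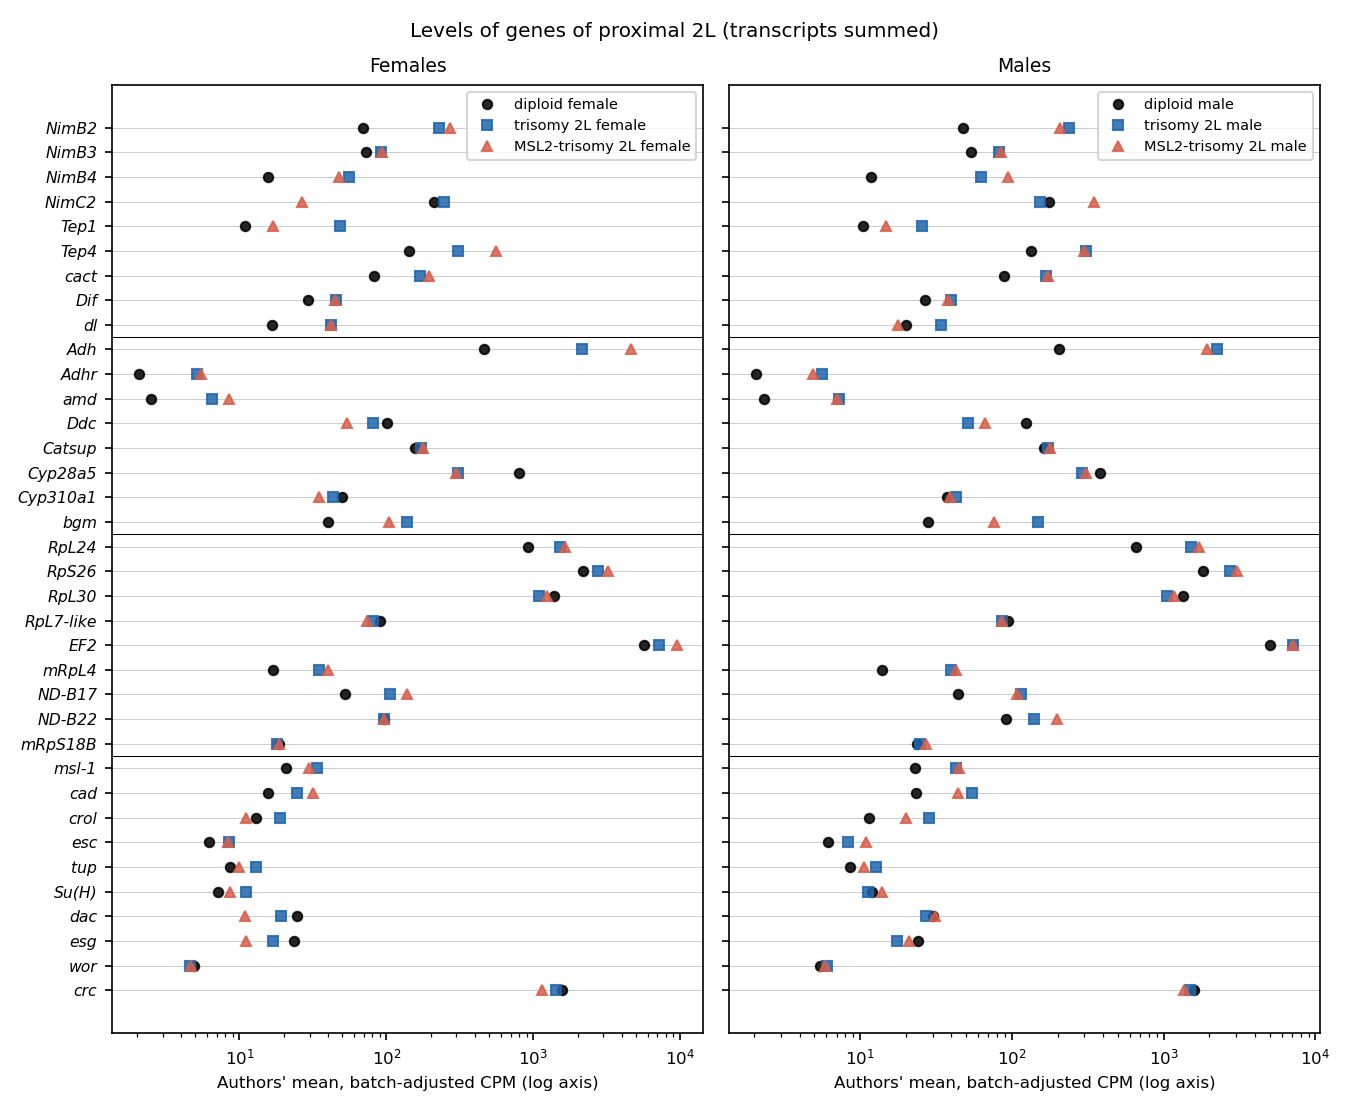
Authors' means in batch-adjusted CPM (x axis, log scale) for genes of proximal 2L in females (left) and males (right): diploid (black circles), trisomy 2L (blue squares) and MSL2-trisomy 2L (red triangles), with all transcripts of a gene summed. Genes are grouped from the top as immune, enzymes, translation and mitochondria, and chromatin and transcription. Blue squares are to the right of black circles for Adh (462 and 2134 CPM in females) and to the left for Cyp28a5 (804 and 305 CPM in females).

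Structural and signalling genes were mixed. Mhc, the muscle myosin heavy chain, had 6.44 CPM in diploid and 770 in trisomy 2L females and 9.65 and 228 in males. Only 6 of its 13 transcripts had a diploid female value, and over these 6 the ratio was 2.61 (1.49 over 5 in males), so its sum cannot be read as a ratio. The muscle markers Act57B and Tm2 were also higher in trisomy 2L females, with 6039 and 10084 CPM and with 525 and 1218 CPM. Fas3, an adhesion protein of septate junctions, was dosage-following at 1.68 and 1.69, and so was BicD, an adaptor of dynein, at 1.60 and 1.63. spi, a ligand of the EGF receptor, was at 0.934 and 0.776. CycE, the cyclin of S phase entry, was at 1.55 in females, or 0.937 over transcripts with both values, and at 0.618 in males.

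The most abundant genes of each class in both sexes give its scale. CG8997 (5017 CPM in diploid females) had ratios of 0.726 and 0.620, and CG6770 (3341 CPM) had 0.649 and 0.684, both inverse like RpL30. Compensated were CG34166 (2831 CPM; 0.820 and 0.929), crc, the ATF4 transcription factor of the stress response (1572 CPM; 0.905 and 0.942), and CG10650 (392 CPM; 0.868 and 0.910). Dosage-following were EF2, RpS26 and Ance, an angiotensin converting enzyme (490 CPM; 1.46 and 1.26). With MSL2, CG8997 was at 0.0753 in females and 0.413 in males and CG6770 at 0.296 and 0.673, while EF2 was at 1.67 and 1.40.

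The largest ratios among genes of at least 10 CPM, chosen for their size and given as a description, were CG17597 (6.05), Pax (5.29), Adh, Arpc1 (4.58) and CG7631 (15.9 and 71.8 CPM) in females, and Adh, Smg5 (8.30), Pax (6.18), NimB4 and bgm (5.27) in males. Pax encodes the focal adhesion protein paxillin, Arpc1 a subunit of the Arp2/3 actin complex, bgm a fatty acid-CoA ligase and Smg5 a factor of nonsense-mediated decay. Only 1 of 3 Smg5 transcripts had both values, and over it the male ratio was 3.07. The lowest were Cyp28a5, CG10462 (0.443), CG9259 (0.459), CG10570 (0.479) and CG8671 (0.481) in females, and dtr (0.242), CG10570 (0.253), CG16957 (0.339), qua (0.345) and bwa (0.357) in males. dtr, CG16957 and qua had 86.7, 47.1 and 58.3 CPM in diploid males and 0.958, 0.922 and 3.08 in diploid females. bwa encodes an alkaline ceramidase, and CG10570 had 919 CPM in diploid and 441 in trisomy 2L females, and 1024 and 259 in males. In metafemales, where the arm has 2 copies, several of these genes lay on the same side of diploid. CG10570 was at 0.406, bwa at 0.376 and qua at 0.181, while Smg5 was at 9.41, CG7631 at 9.79, Pax at 2.86 and bgm at 2.48. Arpc1 was at 0.988 there and Cyp28a5 at 10.6. Lists of genes at low levels gave little more. The 1 cuticle gene was at 0.726 in females and 0.619 in males, 4 of 9 chemoreceptor genes had a female ratio, with a median log2 ratio of -0.14, and in males 7 of 9, with a median of 0.66. Of the 2 Acp genes, Acp36DE was at 0.467 in females, from 0.089 CPM in diploids, and at 1.78 in males, from 1.97 CPM, and Acp32CD, at 1.57 in females, was below 0.1 CPM in diploid and trisomy 2L means.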

How the data were processed

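Reads were mapped by the authors to Release 6 of the genome (the submitters' processing notes name CASAVA, HISAT2, SAMtools and StringTie). Counts per transcript were scaled to mapped reads (CPM) and passed through ComBat, which evens out sequencing batches. Values of 0 or less were dropped before replicate means were taken. The deposited values are thus a batch-adjusted CPM score, with 1 mean per group, and depth is unknown. Which of the single-end and paired-end libraries entered the trisomy 2L and metafemale means is not given in the sources used here. The column sums lie between 882378 and 1062350. The deposited ratio columns (7 and 4 in the 2 tables), which divide these means, were not used.

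Ratios of means were computed without a pseudocount for transcripts with both values. The planned tests on libraries could not be run, since the tables hold group means. Ratios were described by medians, quartiles and class counts beside the same over all transcripts. Class assignment was checked on simulated ratios placed inside the class limits. Such a check shows that the limits are applied as stated, and not how stable the classes are in these data. The members and lists were chosen with earlier results of these data known. Named genes (transcripts summed) were those of the gene lists, with the 2 highest and 2 lowest female ratios of lists made by symbol, the 5 highest and 5 lowest ratios of each sex at 10 CPM or more in both values, and the 3 most abundant of the inverse, compensated and dosage-following classes in both sexes. Alternatives were equal column totals, sums over the transcripts of a gene, minima of 1 and 10 CPM, a pseudocount of 0.1 or 1 CPM with missing values as 0, the stretch narrowed by 1 Mb at both ends and CR names kept. Added after seeing the data were genes with 1 transcript, leaving out male-high transcripts, centring on the other autosomes, named genes over transcripts with both values, genes of at least 10 CPM and the last window without histones. Scripts ran under Python 3.11.15 with pandas 2.3.3, numpy 2.4.6 and scipy 1.17.1, and figures were drawn with matplotlib 3.10.9.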

Additional observations from a re-analysis of the deposited data

How the results depend on the processing

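No paired analysis was possible because the tables hold 1 mean for each group, and for the same reason no replicate could be left out. The excess of proximal 2L over the other autosomes in the 4 trisomy 2L contrasts was above 0 under every alternative run for it. The median log2 ratios themselves moved as follows, and the cause was not tested. In trisomy 2L females (0.22) the median was 0.31 at 1 CPM or more, 0.29 and 0.10 with pseudocounts of 0.1 and 1 CPM and 0.11 in genes with 1 transcript, and the excess (0.45) was 0.51 and 0.52 at 1 and 10 CPM. In MSL2-trisomy 2L females (0.08) it was -0.024 with equal column totals and 0.19 at 10 CPM, where the excess (0.37) was 0.47. In trisomy 2L males (0.10) it was -0.026 in genes with 1 transcript and 0.21 without male-high transcripts. In MSL2-trisomy 2L males (0.07) it was -0.034 with equal column totals, 0.14 in the narrowed stretch, -0.051 in genes with 1 transcript and 0.17 without male-high transcripts, and the excess (0.30) was 0.39 at 10 CPM. Metafemales (-0.26) stood at -0.19 with equal column totals and at -0.16 and -0.052 with the pseudocounts, and MSL2-metafemales (-0.40) at -0.59, -0.50 and -0.20. Equal totals shifted the median of all transcripts by -0.11 in MSL2-trisomy 2L males and by -0.19 in MSL2-metafemales.

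With 1 choice changed at a time, class shares moved by over 1.5 times in 7 cases. In trisomy 2L females the share below inverse (13.2%) was 8.33% and 3.90% at 1 and 10 CPM and 8.01% in genes, and in MSL2-trisomy 2L females (19.6%) it was 12.5% at 10 CPM. The share above dosage was 9.58% in metafemales and 12.0% in MSL2-metafemales in genes with 1 transcript, and centring on the other autosomes gave 15.4% dosage-following in MSL2-metafemales. For genes of at least 10 CPM, which changes 2 choices together, the share below inverse was 1.66% in trisomy 2L females (10.3% with MSL2), 12.7% in males without MSL2 and 21.6% in MSL2-metafemales. There the compensated share was 39.6% in trisomy 2L females, and in MSL2-metafemales 29.8% were inverse and 12.3% above dosage. Ratios of named genes moved by over 1.5 times over transcripts with both values for 6 of 59 genes in trisomy 2L females, 4 of 59 with MSL2, 3 of 60 in males, 2 of 60 with MSL2, 0 of 59 in metafemales and 4 of 58 in MSL2-metafemales. Named genes crossed a ratio of 1 in 6 cases: Smg5 in MSL2-trisomy 2L females (2.54 to 0.132), CycE (0.937) and brat (0.820) in trisomy 2L females, dac in MSL2-trisomy 2L females (1.05) and MSL2-metafemales (1.32), and dl in trisomy 2L males (0.968).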
